A study of Mus musculus with 33 samples.

Results

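The genes described here are 37 mouse genes whose symbols begin with Fox, out of 22367 coding genes. They were taken by name, without Foxa1, Foxa2 and Foxd3, and not by any measured value. Of these, 36 encode forkhead transcription factors, and Foxred1, an oxidoreductase gene that shares only the letters of the symbol, was kept apart. The 36 were grouped by known expression into 25 lineage genes and 11 broadly expressed genes. This grouping was made with earlier results of these data in hand. The lineage genes comprised 11 of neural, sensory or ciliated tissues, 9 of mesenchyme and gonad, and 5 of endoderm and epithelia.

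Chromatin immunoprecipitation followed by sequencing (ChIP-seq) was performed in E14 mouse embryonic stem cells (mESC), wild type (WT) or knockout for Uhrf1 (Uhrf1 KO), and in embryoid bodies (EBs), aggregates of differentiating stem cells, made from each and taken at weeks 1, 2 and 3. Uhrf1 is a chromatin protein that binds modified histone H3 and brings the maintenance DNA methyltransferase to replicated DNA. Per the study's methods, stem cells of both genotypes were kept in the same medium on gelatin or mouse embryonic fibroblast plates. The EBs were started as hanging drops in a differentiation medium and then grown as spheroids. The sources used here do not say which plate a stem cell library came from or whether the KO line was 1 clone. Each genotype, stage and target had 1 library, so the differences below have no replicate check, and no p-value is given.

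Forkhead factors bind DNA through a winged-helix domain. Many of them specify organs in the embryo and are silent in stem cells, whereas others act in nearly all cells in metabolism, growth control and the cell cycle. In stem cells the promoters of silent developmental genes often carry H3K4me3, a mark of active promoters, together with H3K27me3, the Polycomb mark of repression, a state called bivalent.

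The authors deposited H3K4me3 and H3K27me3 domains for every genotype and stage. A promoter was called marked when a domain came within 2 kb (H3K4me3) or 5 kb (H3K27me3) of the gene start, and was active with H3K4me3 only, repressive with H3K27me3 only, bivalent with both, and without a mark otherwise. The number of domains ranged from 11509 to 39898 for H3K4me3 and from 722 to 9488 for H3K27me3. The shortest list was the Uhrf1 KO mESC H3K27me3 list, which covered 84.1 Mb against 960 Mb in WT mESC and had a median of 0.914 reads per 1500 bp bin. As a check of the stages, H3K4me3 was present at 7 of 8 stem cell marker genes in both mESC lists, at 5 in WT and 2 in Uhrf1 KO EBs at week 1, and again at 7 in both genotypes at weeks 2 and 3. This count thus did not tell EBs at weeks 2 and 3 from mESC. Of 6 fibroblast markers, 4 held H3K4me3 in WT mESC, all of them bivalent, and 3 in Uhrf1 KO mESC, with 2 active and 1 bivalent. The Uhrf1 promoter itself was active in all 8 pairs of lists, so its marks do not show the deletion.

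Bivalent promoters were found mostly at lineage genes, except in Uhrf1 KO mESC, where few genes of either group were bivalent. In WT mESC 15 of the 25 lineage genes were bivalent and none of the 11 broadly expressed genes was, where 18.3% of all coding genes were. In Uhrf1 KO mESC 2 lineage genes and 1 broadly expressed gene were bivalent (4.29% of coding genes). At week 1, 16 lineage genes were bivalent in WT and 7 in Uhrf1 KO, against 15.2% and 10.7% of coding genes. At week 2 both genotypes had 15 bivalent lineage genes, against 13.7% (WT) and 13.4% (Uhrf1 KO) of coding genes. At week 3 the counts were 17 in WT and 16 in Uhrf1 KO, against 19.6% and 11.3%. The gap between genotypes among lineage genes was 13 genes before differentiation, and in EBs it was 9, 0 and 1 genes at the successive weeks. The gap in mESC was smaller with lists of equal length: when the WT and Uhrf1 KO lists of a mark were cut to the same number of domains by score, 4 lineage genes were bivalent in WT mESC and 2 in Uhrf1 KO mESC.

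**Figure D1:**
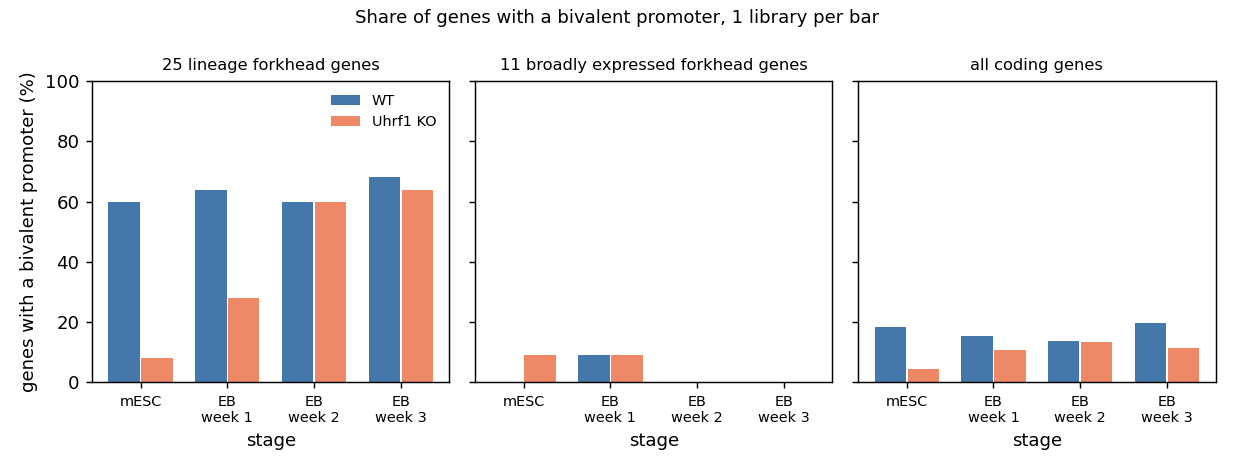
Share of genes with a bivalent promoter (vertical axis, percent) by stage, in WT (blue) and Uhrf1 KO (orange), for the 25 lineage forkhead genes, the 11 broadly expressed ones and all coding genes, with 1 library per mark behind each bar and no error bar. The lineage genes reached 60% in WT mESC and 8% in Uhrf1 KO mESC, and both genotypes stood at 60% at week 2.

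The class of a promoter differed between WT and Uhrf1 KO at 20 of the 36 forkhead genes in mESC, where it differed at 36.4% of coding genes. In EBs it differed at 10 forkhead genes at week 1 (18.1% of coding genes), at 5 at week 2 (29%) and at 4 at week 3 (23%). All but 1 of the genes in mESC, the exception being Foxj3, and all of those at week 1 were lineage genes.

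**Figure D2:**
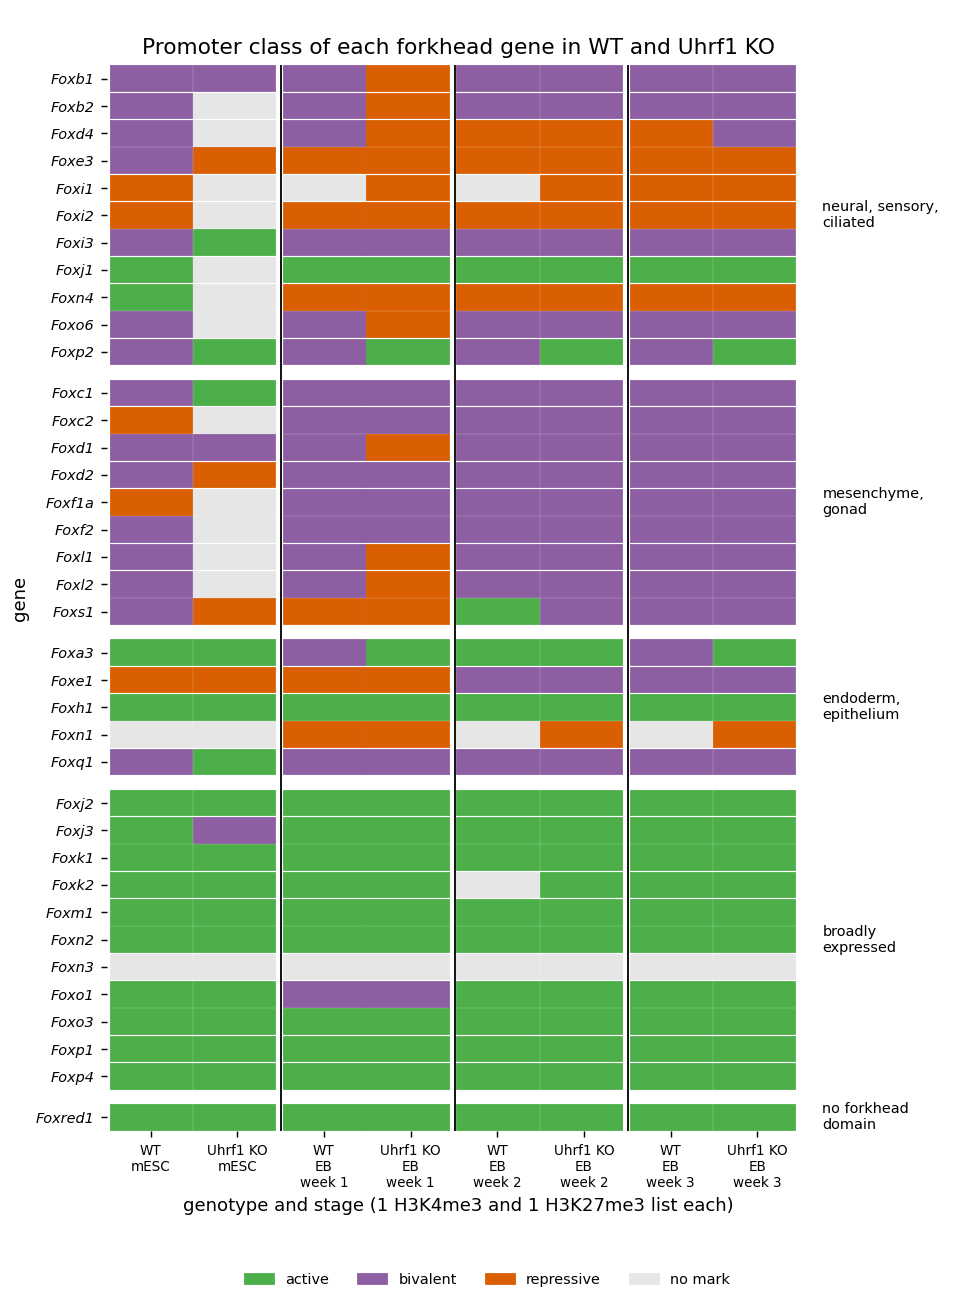
Promoter class (colour) of each Fox gene (rows, by tissue group) in the 8 pairs of H3K4me3 and H3K27me3 lists (columns, WT and Uhrf1 KO at each stage). Broadly expressed genes are active nearly throughout, and the 7 lineage genes that are bivalent in WT and repressive in Uhrf1 KO stand out at week 1.

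The broadly expressed genes were active in almost every list. Foxk1, a regulator of glycolysis and autophagy, Foxo3, a stress and longevity factor held in check by insulin signalling, and Foxm1, a driver of mitotic gene expression, were active in all 8 pairs. At Foxk1 the H3K4me3 domain measured 16.9 kb in WT and 13 kb in Uhrf1 KO mESC, 6 and 7 kb at week 1, 22 and 14.7 kb at week 2, and 12 and 16.8 kb at week 3. At Foxo3 it measured 13 and 33.8 kb in mESC, 10.8 and 3.85 kb at week 1, 11.2 and 10.85 kb at week 2, and 12.8 and 10.8 kb at week 3. At Foxm1 it measured 33.8 and 31.2 kb in mESC, 15.2 and 7 kb at week 1, 21.6 and 28.7 kb at week 2, and 18 and 20.4 kb at week 3. Neither genotype had the longer domain throughout, and the nearest H3K27me3 domain lay between 27.9 kb (Foxo3, WT week 1) and 3469 kb (Foxm1, Uhrf1 KO mESC) away in all lists.

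Foxj2, Foxn2, Foxp1, a repressor in lymphoid, heart and neural development, and Foxp4 were likewise active in all 8 pairs, as was Foxred1. Foxo1, the insulin-regulated partner of Foxo3, was active at every stage but week 1, where H3K27me3 domains of 10.5 kb in WT and 10.8 kb in Uhrf1 KO made it bivalent in both genotypes. Foxj3 was bivalent in Uhrf1 KO mESC only, through a 139.5 kb domain with a mean of 1.25 reads per bin. Foxk2, the paralogue of Foxk1, had no mark in WT at week 2, where the nearest H3K4me3 domain lay 2.79 kb from the annotated start, just outside the window. Foxn3, a checkpoint gene, had no mark in any list at its annotated gene start, with H3K4me3 12.1 to 42.3 kb away, but was active in all 8 pairs when any annotated transcript start was allowed. H3K4me3 domains measured 9.1 to 32.5 kb at Foxj2, 2.8 to 28 kb at Foxn2, 1.2 to 16.4 kb at Foxp1 and 7.7 to 25.6 kb at Foxp4, with no H3K27me3 domain closer than 22.7 kb to any of the 4.

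In mESC fewer lineage genes held each mark in Uhrf1 KO, which for H3K27me3 turned with the list length. H3K27me3 was present at 20 lineage genes in WT and absent in Uhrf1 KO at 14 of them, against 84.5% of marked coding genes, a share higher than that of the lineage genes. With lists of equal number 5 lineage genes held H3K27me3 in WT mESC and 6 in Uhrf1 KO mESC. H3K4me3 was present at 19 and absent in Uhrf1 KO at 11 of them, against 12% of marked coding genes. It was likewise absent in other developmental families, at 5 of 7 marked Pax genes and 13 of 31 marked Hox genes. The H3K4me3 counts under other settings that follow are given without a share of coding genes. They do not show whether the difference was particular to lineage genes. With lists of equal number H3K4me3 was present at 15 lineage genes in WT and 8 in Uhrf1 KO. With domains over the median score it was present at 9 in WT and 4 in Uhrf1 KO. Of the 11 genes only Foxd2 and Foxe3, which shared 1 domain, then held it in WT. In the full WT list the domains ranked by mean read count at a median percentile of 12.8 at lineage and 49.4 at broadly expressed genes. With the full lists, none of the 10 broadly expressed genes with H3K4me3 in WT lacked it in Uhrf1 KO. The 11 genes were Foxb2, Foxd2, Foxd4, Foxe3, Foxf2, Foxj1, Foxl1, Foxl2, Foxn4, Foxo6 and Foxs1. Among them Foxj1, the master regulator of motile cilia, and Foxn4, a retinal and spinal interneuron factor, were active in WT and had no mark in Uhrf1 KO. For Foxj1 the WT domain measured 3.9 kb, and the nearest Uhrf1 KO domain lay 20.9 kb away, and in EBs Foxj1 was active in both genotypes with domains of 2.45 to 6.4 kb. For Foxn4 the WT domain in mESC measured 9.1 kb, and the nearest in any EB list lay 23.0 kb from the start, where H3K27me3 made the gene repressive.

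Of the 15 lineage genes bivalent in WT mESC, 6 had no mark in Uhrf1 KO, 4 were active, 3 were repressive and 2 stayed bivalent. Of 4100 such coding genes, 781 had no mark, 60.5% were active, 5.8% were repressive and 14.6% stayed bivalent. The share of lineage genes that stayed bivalent was thus near that of coding genes. Of 7 such Pax genes, 2 had no mark, 1 was active, 3 were repressive and 1 stayed bivalent. Of 31 such Hox genes, 13 were repressive and 18 stayed bivalent. The 6 without a mark were Foxb2, Foxd4, Foxf2, Foxl1, Foxl2, the ovarian and pituitary factor, and Foxo6. The 4 active genes were Foxc1, Foxi3, Foxp2 and Foxq1. The 3 repressive genes were Foxd2, Foxe3, required in the lens, and Foxs1. With windows of 1 kb (H3K4me3) and 2 kb (H3K27me3) Foxe3 was repressive in WT mESC too. With at least 50% of the window covered, both Foxe3 and Foxs1 were repressive in WT mESC. The 2 that stayed bivalent were Foxb1, of the diencephalon and mammillary body, and Foxd1, of kidney stroma and retina. Their H3K27me3 domains were long in both genotypes, with 302.4 kb in WT and 495 kb in Uhrf1 KO at Foxb1, and 257.4 and 403.5 kb at Foxd1. The Uhrf1 KO domains at the forkhead genes averaged at most 1.69 reads per bin of 1500 bp, which cannot be compared with the WT list, whose bins were of 1800 bp and whose depth was not matched here.

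The starts of the genes differed in CpG content. CpG dinucleotides are sparse in mammalian DNA except in CpG islands, where most H3K4me3 promoters lie. In the 500 bases on either side of the start the ratio of observed to expected CpG had a median of 0.734 over the lineage genes and 0.864 over the broadly expressed genes, against 0.549 over 22354 coding genes. The ratio was 0.292 at Foxi1, of ionocytes and the inner ear, 0.18 at Foxn1, of thymus and hair follicle epithelium, 0.56 at Foxi2 and 0.232 at Foxn3, and these 4 genes had H3K4me3 in none of the lists. The 16 Fox genes with H3K4me3 in all 8 lists had a median of 0.846, with a range from 0.248 at Foxp1 to 1.06 at Foxo1. Low CpG content did not go with absence of the mark throughout: Foxh1 (0.293) and Foxp1 were marked in every list. The values hold for the annotated gene start only. Foxn3 was active in all 8 pairs when any transcript start was allowed, and Foxp1 has 10 annotated starts.

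**Figure D3:**
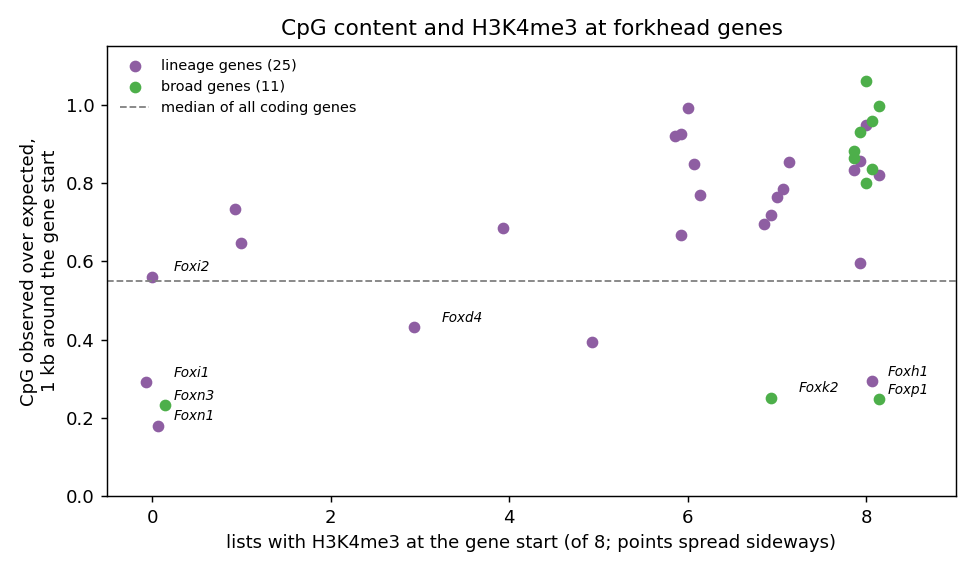
Ratio of observed to expected CpG in the 500 bases on either side of the gene start (vertical axis) against the number of lists with H3K4me3 there (horizontal axis, 0 to 8), for the 25 lineage and 11 broadly expressed genes, each point 1 gene and the dashed line the median of all coding genes. Foxi1, Foxn1 and Foxn3 lie low with no marked list, while Foxh1 and Foxp1 lie as low with 8. Only the annotated gene start is shown, and Foxn3 was marked in all 8 at another annotated start.

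The 150 bases upstream of 4 starts are given, from the NCBIM37 (mm9) genome, to show promoters that stayed active (Foxm1), that were active in Uhrf1 KO and bivalent in WT at every stage (Foxp2), that were bivalent except in Uhrf1 KO at week 1 (Foxd1), and that never held H3K4me3 (Foxi1). Capitals mark each CG, a motif that reads the same on both strands, which was present in 87.4% of the same windows of coding genes, with a median of 6. Foxm1 (chr6:128312835-128312984, + strand) held 25 CG, Foxp2 (chr6:14851199-14851348, + strand) 15, Foxd1 (chr13:99124050-99124199, + strand) 8 and Foxi1 (chr11:34108090-34108239, - strand) 3.
Foxm1: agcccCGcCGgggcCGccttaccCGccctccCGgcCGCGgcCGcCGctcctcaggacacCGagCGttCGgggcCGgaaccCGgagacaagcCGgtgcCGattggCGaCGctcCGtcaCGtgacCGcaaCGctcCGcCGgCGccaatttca
Foxp2: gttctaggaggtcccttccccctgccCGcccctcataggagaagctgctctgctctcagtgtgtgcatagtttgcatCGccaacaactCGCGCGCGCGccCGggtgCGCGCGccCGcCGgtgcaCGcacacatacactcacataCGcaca
Foxd1: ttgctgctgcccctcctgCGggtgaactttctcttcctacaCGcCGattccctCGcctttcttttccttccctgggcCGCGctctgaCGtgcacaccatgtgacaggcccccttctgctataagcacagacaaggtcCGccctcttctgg
Foxi1: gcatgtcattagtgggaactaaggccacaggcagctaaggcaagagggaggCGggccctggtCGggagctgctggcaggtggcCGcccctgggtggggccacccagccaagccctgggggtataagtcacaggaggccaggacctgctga

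At week 1, 7 of the 10 forkhead genes that differed in class between genotypes did so in H3K4me3, and the other 3, Foxa3, Foxi1 and Foxp2, in H3K27me3. Of 18 lineage genes with H3K4me3 in WT, 7 lacked it in Uhrf1 KO, and none of 10 broadly expressed genes did, where 10% of marked coding genes did. H3K27me3 was present at 22 lineage genes in WT and was missing in Uhrf1 KO at 2 of them, Foxa3 and Foxp2, against 27.7% of coding genes, while Foxi1 held it in Uhrf1 KO only. All 7 genes without H3K4me3 were thus repressive in Uhrf1 KO: Foxb1, Foxb2, Foxd1, Foxd4, Foxl1, Foxl2 and Foxo6. They made up 7 of the 16 bivalent lineage genes, against 20.3% of bivalent coding genes. In the other developmental families 6 of 7 bivalent Pax genes and 10 of 30 bivalent Hox genes were repressive in Uhrf1 KO at week 1. Such genes were thus found in the other developmental families too.

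**Figure D4:**
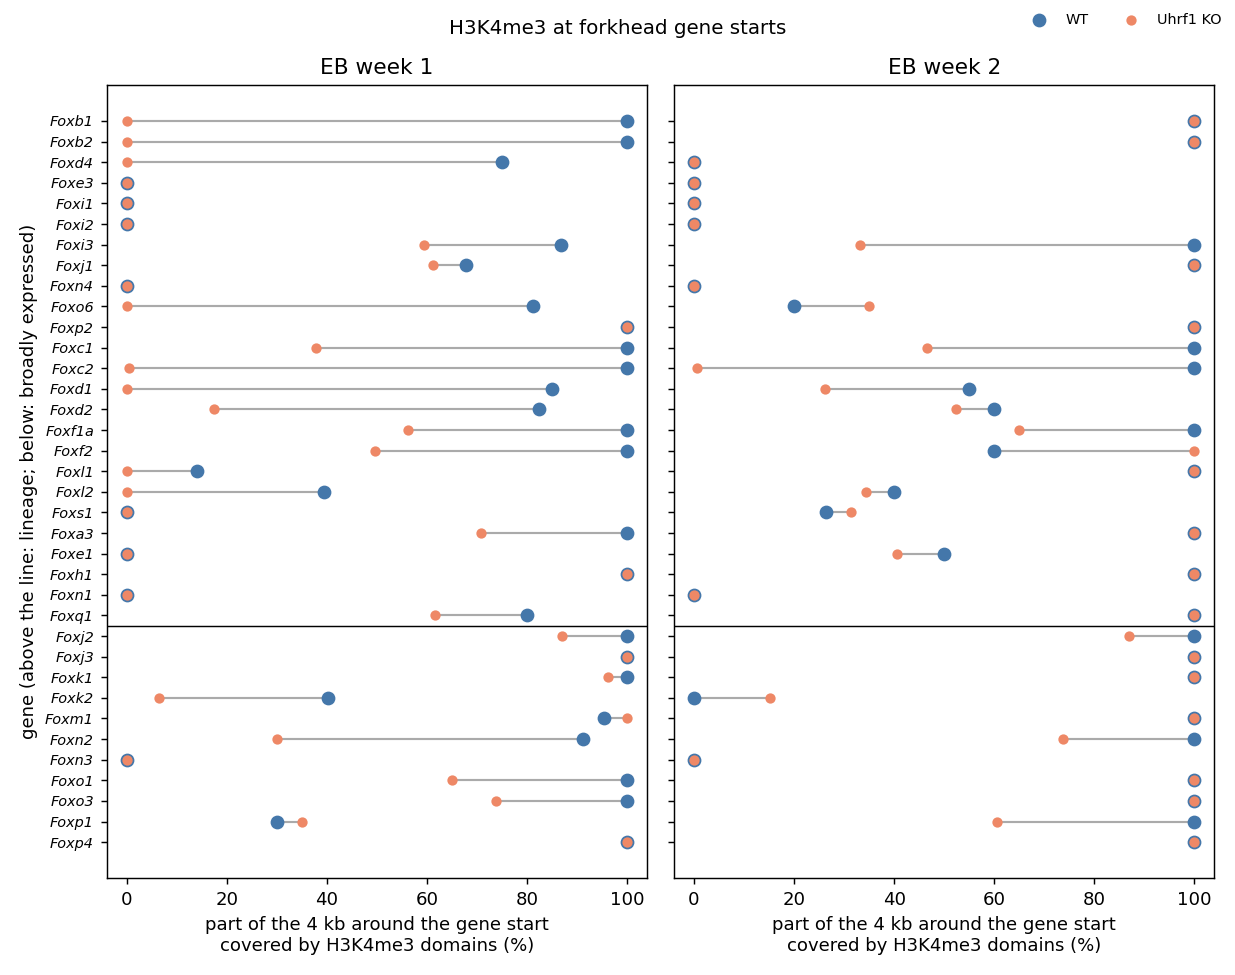
Part of the 4 kb around each gene start that H3K4me3 domains cover (horizontal axis, percent) in WT (blue) and Uhrf1 KO (orange) EBs at weeks 1 and 2, each point 1 library and the lines joining the genotypes. At week 1 Foxb1 and Foxb2 go from 100% in WT to 0% in Uhrf1 KO, and at week 2 both are at 100% in both genotypes.

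The 7 genes belong to different organs: Foxb1, Foxb2, Foxd4 and Foxo6 are known from the developing nervous system, Foxd1 and Foxl1 from kidney stroma and gut mesenchyme, and Foxl2 from the ovary. At Foxb1 the H3K4me3 domain measured 15.6 kb in WT and 9.1 kb in Uhrf1 KO mESC and 12 kb in WT at week 1, where the nearest Uhrf1 KO domain lay 226.4 kb away. At week 2 the Foxb1 domains measured 16.4 kb in WT and 15.05 kb in Uhrf1 KO, and at week 3 16.4 and 15.6 kb. The domain was therefore long in every list but that of Uhrf1 KO at week 1.

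At Foxb2 the domain measured 5.2 kb in WT mESC, 6 kb in WT at week 1, 6 and 6.3 kb at week 2, and 4.4 kb in both genotypes at week 3. The nearest Uhrf1 KO domain lay 87.1 kb away in mESC and 82.5 kb at week 1. At Foxd4 the WT domains measured 9.1 kb in mESC and 3.6 kb at week 1, the Uhrf1 KO domain measured 2.8 kb at week 3, and in the other lists the nearest lay 29.4 kb away or farther. At Foxo6, the forkhead gene of the cortex and hippocampus, domains measured 7.8 kb in WT mESC, 4 kb in WT at week 1, 0.8 and 2.45 kb at week 2 and 5.2 kb in both genotypes at week 3, and the nearest Uhrf1 KO domain was 118.4 kb away in mESC and at week 1. At Foxl2 the WT domain of 2.4 kb at week 1 was 22.8 kb from the nearest Uhrf1 KO domain. Foxb1, Foxb2, Foxd4, Foxl2 and Foxo6 were thus far from any Uhrf1 KO H3K4me3 domain at week 1.

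The other 2 calls were close to the limit of the window. At Foxd1 the nearest Uhrf1 KO domain at week 1 lay 2.1 kb from the start, against a WT domain that covered 85% of the window. At Foxl1 the WT domain was one it shared with Foxc2, which reached into 14% of the Foxl1 window, and the nearest Uhrf1 KO domain lay 6.64 kb away. Across 8 other settings the week 1 pattern held in all 8 for Foxb1 and Foxb2, in 7 for Foxd4 and Foxo6, and in 6 for Foxd1, Foxl1 and Foxl2. Not all of these settings could change it. Allowing any transcript start could not, as each of the 7 genes has 1 annotated start. Windows of 2 kb for both marks and a count minimum for Uhrf1 KO H3K27me3 domains left the H3K4me3 calls untouched. Lists of equal number changed little, as the H3K4me3 lists held 18672 domains in WT and 19041 in Uhrf1 KO.

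Another 7 of the 16 lineage genes bivalent in WT were bivalent in both genotypes at week 1: Foxc1, Foxc2, Foxd2, Foxf1a, Foxf2, Foxi3 and Foxq1. Among coding genes bivalent in WT this share was 50.9%, near that of the lineage genes. It held for 20 of 30 Hox genes and 1 of 7 Pax genes. The split between these and the 7 repressive genes rested in part on small overlaps: when domains had to cover at least 50% of the window, Foxc1, Foxc2, Foxd2 and Foxf2 were repressive in Uhrf1 KO too, and with domains over the median score Foxc1, Foxd2, Foxf2 and Foxi3 were. Of the 7 bivalent genes, Foxc1, Foxc2, Foxf1a and Foxf2 act in mesoderm, vessels and gut mesenchyme. In WT the H3K4me3 domains of these 7 genes ranked at the 26.7 percentile of mean read count in their list (median, range 2.58 to 59.9). Those of the 7 genes without H3K4me3 in Uhrf1 KO ranked at the 8.61 percentile (0.573 to 40.5). Some overlap of these ranges was fixed, as Foxc2 and Foxl1, 1 from each set, shared a WT domain of 22.4 kb. Foxc2 and Foxl1 also shared a WT H3K27me3 domain of 63 kb. The part of a low WT mean count in the pattern was not tested. The H3K27me3 domains of both sets were among the densest of the WT list, with medians at the 91.0 and 95.8 percentile.

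Where a domain remained in Uhrf1 KO at week 1 it was mostly shorter. The H3K4me3 domain was shorter in Uhrf1 KO at 10 of the 11 lineage genes marked in both genotypes, with a median ratio of 0.347, and at 7 of 10 broadly expressed genes, with a median ratio of 0.676, against 82.1% of coding genes and a median ratio of 0.713. At Foxc1 it measured 13.6 kb in WT and 1.4 kb in Uhrf1 KO, and at Foxf2 18 and 1.4 kb. At Foxq1, which acts in hair and epithelia, it measured 3.2 kb in WT and 4.9 kb in Uhrf1 KO, the only lineage gene with the longer domain in Uhrf1 KO. In mESC the domain was shorter in Uhrf1 KO at 4 of 8 lineage genes (49.4% of coding genes), at week 2 at 15 of 19 (67.2%) and at week 3 at 13 of 19 (45.9%). The bins behind the lists were 400 bp in WT and 350 bp in Uhrf1 KO at weeks 1 and 2 and equal at the other stages.

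Markers of cell types moved in the same list. Of 4 neural markers, all were bivalent in WT EBs at week 1, and Pax6, Tubb3 and Neurod1 were repressive in Uhrf1 KO while Nes stayed bivalent. H3K4me3 was present at all 5 cardiac markers in both genotypes and at 4 of 5 endoderm markers in WT and 5 in Uhrf1 KO. It was present at 5 of 8 stem cell markers in WT and 2 in Uhrf1 KO, and at 5 of 6 fibroblast markers in both. In whole EBs fewer cells of a type and less of a mark per cell cannot be told apart, and the part of cell composition in the week 1 pattern was not tested.

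At weeks 2 and 3 nearly the same number of lineage genes held each mark in both genotypes under the windows used. The agreement depended on the setting: with at least 50% of the window covered, 13 lineage genes were bivalent in WT and 7 in Uhrf1 KO at week 2, and 15 and 11 at week 3. With domains over the median score the class differed at 12 forkhead genes at week 2 and 8 at week 3. The H3K4me3 domains at week 2 were also shorter in Uhrf1 KO, as given above, with a median ratio of 0.606 over the lineage genes. No forkhead gene with H3K4me3 in WT lacked it in Uhrf1 KO, out of 28 at week 2 and 29 at week 3, against 5.33% and 3.73% of marked coding genes. H3K27me3 was absent in Uhrf1 KO at 1 of 19 genes at week 2, Foxp2, against 51.2% of marked coding genes. At week 3 it was absent at 2 of 22, Foxa3 and Foxp2, against 50.1%. None of the 8 or 9 marked Pax genes and none of the 40 Hox genes lacked H3K27me3 in Uhrf1 KO at these weeks either. The 7 genes that were repressive in Uhrf1 KO at week 1 were bivalent in both genotypes at weeks 2 and 3, except Foxd4, which was repressive in both at week 2 and bivalent only in Uhrf1 KO at week 3.

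H3K27me3 at these 7 genes covered broad stretches wherever it was present. At Foxb1 the domains measured 43.75 kb in WT and 39.6 kb in Uhrf1 KO at week 1, 122.4 and 491.4 kb at week 2, and 486 and 237.6 kb at week 3. At Foxb2 they measured 126 kb in WT mESC, 24.5 and 39.6 kb at week 1, 347.4 and 244.8 kb at week 2, and 127.8 and 102.6 kb at week 3. At Foxd4 they measured 73.8 kb in WT mESC, 26.25 and 57.6 kb at week 1, 127.8 and 68.4 kb at week 2, and 162 and 55.8 kb at week 3. Except at Foxb1 and Foxd1, which kept a domain, no H3K27me3 domain of the Uhrf1 KO mESC list came near the 7 genes, the closest being 274 kb from Foxo6. The longer domain was in WT at some stages and in Uhrf1 KO at others.

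Foxp2, a factor of neural circuits for vocal and motor learning, was bivalent in WT and active in Uhrf1 KO at all 4 stages. No other forkhead gene showed this, and 0.291% of coding genes did, 65 in all, a share that counts genes not bivalent in WT. Among coding genes bivalent in WT at a stage, 60.5% were active in Uhrf1 KO in mESC. At weeks 1, 2 and 3 these shares were 24.1%, 35.3% and 46.8%. The mESC call rests on the short Uhrf1 KO H3K27me3 list. Its H3K27me3 domain in WT measured 201.6 kb in mESC, 15.75 kb at week 1, 1422 kb at week 2 and 169.2 kb at week 3. In Uhrf1 KO the nearest H3K27me3 domain lay 7746 kb away in mESC, 2088 kb at week 1, 226.3 kb at week 2 and 739.3 kb at week 3. Its H3K4me3 domain was of like length in the genotypes, with 9.1 kb in both in mESC, 8 kb in WT and 7 kb in Uhrf1 KO at week 1, 12.8 and 8.75 kb at week 2, and 8.4 and 7.2 kb at week 3. The difference at Foxp2 thus lay in H3K27me3, and it held at all 4 stages in 6 of 8 other settings and at 3 stages in the other 2. Among the 6, the setting that only dropped Uhrf1 KO H3K27me3 domains of low mean count could not change it.

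The genes of endoderm and epithelia did not share 1 pattern. Foxa3, of liver and gut, was active in all Uhrf1 KO lists and was bivalent in WT at weeks 1 and 3, through H3K27me3 domains of only 1.75 and 7.2 kb. Its H3K4me3 domain measured 46.8 kb in WT and 40.3 kb in Uhrf1 KO mESC, 8.4 and 5.6 kb at week 1, 6.8 and 9.45 kb at week 2, and 13.6 and 9.6 kb at week 3. Foxh1, the Nodal pathway cofactor of Smad proteins in early embryos, was active in all 8 pairs, with H3K4me3 domains from 8.75 kb (Uhrf1 KO week 1) to 122.2 kb (WT mESC) and no H3K27me3 within 46.4 kb. Foxe1, of thyroid and palate, was repressive in mESC and at week 1 and bivalent at weeks 2 and 3 in both genotypes, with H3K4me3 domains of 1.6 to 2.4 kb. Among the mesenchymal genes, Foxs1 was bivalent in WT and repressive in Uhrf1 KO mESC, repressive in both at week 1, active in WT and bivalent in Uhrf1 KO at week 2 and bivalent in both at week 3.

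Foxi1, Foxi2 and Foxn1 had no H3K4me3 in any list, and the nearest domain lay 8.89 to 106 kb from Foxi1, 116 to 300.5 kb from Foxi2 and 9.94 to 25.9 kb from Foxn1. Foxi1 held H3K27me3 domains of 601.2 kb in WT mESC, 210.6 kb in Uhrf1 KO at week 1, 1003 kb in Uhrf1 KO at week 2, and 140.4 kb in WT and 199.8 kb in Uhrf1 KO at week 3. The remaining lists had none at Foxi1, the nearest being 9.34 kb away in WT at week 1 and 70.3 kb in WT at week 2. Foxi2 was repressive in every list but Uhrf1 KO mESC. Foxn1 was repressive in both genotypes at week 1 and in Uhrf1 KO alone at weeks 2 and 3.

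Some forkhead genes lie side by side, and their calls are not independent. On chromosome 8 the start of Foxf1a, required for gut and lung mesenchyme, lies 31.8 kb from that of Foxc2, of lymphatic and heart development, and Foxl1 lies 11.8 kb beyond Foxc2. A single H3K27me3 domain held all 3 starts in WT mESC (156.6 kb), at week 2 in WT (140.4 kb) and Uhrf1 KO (864 kb), and at week 3 in Uhrf1 KO (869.4 kb). At week 1 Foxf1a had a domain of its own in both genotypes (49 kb in WT, 244.8 kb in Uhrf1 KO) and Foxc2 and Foxl1 shared one (63 and 55.8 kb). In Uhrf1 KO mESC the nearest H3K27me3 domain lay 473 kb from Foxf1a.

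H3K4me3 at this cluster was laid out differently in the genotypes. Foxc2 had no H3K4me3 within its window in mESC, with domains 4.87 kb (WT) and 6.17 kb (Uhrf1 KO) away. In WT EBs Foxc2 and Foxl1 shared domains of 22.4, 19.6 and 29.2 kb at weeks 1, 2 and 3. In Uhrf1 KO the Foxc2 domains measured 3.15 kb at week 1, 2.1 kb at week 2 and 9.2 kb at week 3, and covered 0.525%, 0.525% and 1.77% of the Foxc2 window, so the KO calls rest on the edge of a domain. At Foxf1a they measured 10, 20 and 11.6 kb in WT and 3.85, 4.55 and 10 kb in Uhrf1 KO at the 3 weeks. In both genotypes H3K4me3 within the Foxf1a window appeared first in EBs. With windows of 1 kb (H3K4me3) and 2 kb (H3K27me3) the class of Foxc2 differed between genotypes at all 4 stages rather than at 1.

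**Figure D5:**
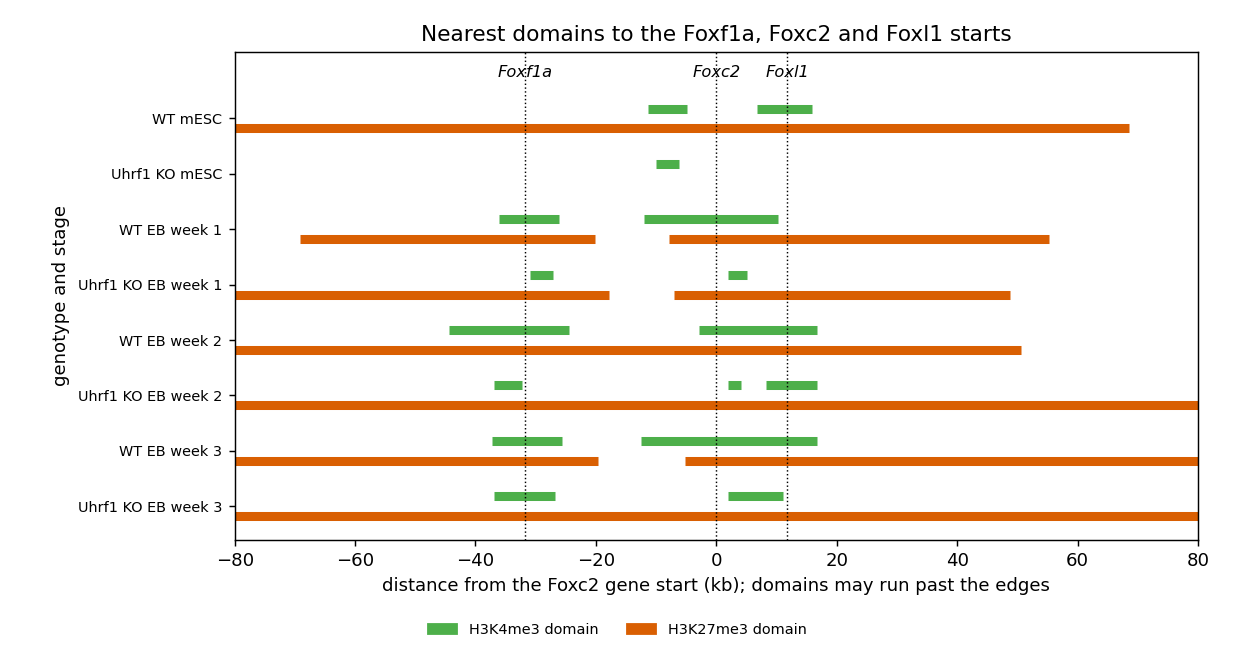
H3K4me3 (green) and H3K27me3 (orange) domains nearest to the starts of Foxf1a, Foxc2 and Foxl1 (dotted lines) in each genotype and stage (rows, 1 library per mark), by distance from the Foxc2 start in kb (horizontal axis). In WT EBs 1 H3K4me3 domain spans Foxc2 towards Foxl1, with 22.4 kb at week 1, and in Uhrf1 KO at week 1 it measures 3.15 kb.

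On chromosome 13 Foxq1 lies 67.6 kb from Foxf2, which lies 181 kb from Foxc1. Foxq1 and Foxf2 shared 1 H3K27me3 domain in WT mESC (126 kb), at week 1 in Uhrf1 KO (124.2 kb), and at weeks 2 and 3 in both genotypes (162 kb in WT and 97.2 kb in Uhrf1 KO, then 174.6 and 102.6 kb). In WT at week 1 they had separate domains of 21 kb (Foxq1) and 33.25 kb (Foxf2). Their H3K4me3 domains were separate in all lists. At Foxq1 these measured 5.2 kb in both genotypes in mESC, 10 and 5.95 kb at week 2 and 10.4 and 5.2 kb at week 3. At Foxf2 they measured 7.8 kb in WT mESC, 10 kb in WT and 15.75 kb in Uhrf1 KO at week 2, and 14.8 kb in both at week 3, while in Uhrf1 KO mESC the nearest lay 45.2 kb away.

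On chromosome 4 Foxd2 and Foxe3, 17.2 kb apart, shared 1 H3K27me3 domain in all 8 lists, from 109.8 kb (Uhrf1 KO week 3) to 669 kb (Uhrf1 KO mESC). They shared H3K4me3 in WT mESC only, in a 26 kb domain. At Foxd2 the H3K4me3 domain then measured 4.4 kb in WT and 0.7 kb in Uhrf1 KO at week 1, 5.2 and 1.75 kb at week 2, and 14 and 2 kb at week 3. At Foxe3 no EB list had H3K4me3 within 5.06 kb. The neighbours thus shared the repressive mark throughout and differed in H3K4me3 in EBs.

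Marks and factors outside the classes were mapped in mESC. H3K9me3, the heterochromatin mark, lay within 5 kb of 8 forkhead gene starts in WT (29.7% of coding genes) and 11 in Uhrf1 KO (40.1%). In WT these were Foxc2, Foxd1, Foxf1a, Foxi1, Foxk2, Foxl1, Foxn2 and Foxo3. In Uhrf1 KO they were Foxd1, Foxf2, Foxi1, Foxj1, Foxj2, Foxj3, Foxk2, Foxn1, Foxn2, Foxo3 and Foxp2, some of them inside domains as long as 11826 kb (Foxn1). No Fox gene had a Uhrf1 window within 5 kb of its start (6.1% of coding genes), the nearest being 19.95 kb from Foxn2.

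Oct4, Sox2 and Nanog are the core factors of pluripotency. In WT an Oct4 summit lay within 5 kb of 7 forkhead genes (8.16% of coding genes): Foxb1, Foxd1, Foxf1a, Foxf2, Foxh1, Foxp1 and Foxp4. The highest was at Foxh1, with 109 reads 0.036 kb from the start, followed by Foxd1 with 87 reads 4.49 kb downstream. At Foxb1, Foxf1a and Foxf2 the summits had 20, 25 and 13 reads, at Foxp1 the summit had 30 and at Foxp4 the taller of 2 had 50. No Fox gene had an Oct4 summit in Uhrf1 KO (0.215% of coding genes), whose list held 576 summits against 12898 in WT.

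Sox2 summits lay near 7 forkhead genes in WT (6.6% of coding genes): Foxb1, Foxb2, Foxd1, Foxd4, Foxf1a, Foxj3 and Foxp4, with 11 to 34 reads. In Uhrf1 KO they lay near 21 (31.3%), 13 lineage and 8 broadly expressed genes, in a list of 20755 summits against 5190. The tallest was at Foxh1 (66 reads), followed by Foxd1 (43 reads), and at most of the others they had 11 to 23 reads. A Nanog summit lay near Foxd1 in both genotypes (1.4% of coding genes in WT), at 4.46 and 4.49 kb downstream, and near Foxd4, Foxh1 and Foxp1 in Uhrf1 KO only (5.81%). At Foxd1 the WT summits of Oct4 (4.49 kb), Sox2 (4.50 kb) and Nanog thus lay side by side.

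The genes known to act with forkhead factors were classed in the same way. Of 21 such genes, 15 were active and 5 bivalent in WT mESC, and 19 were active in Uhrf1 KO mESC, the other 2 without a mark. At week 1, 8 were bivalent in WT and 4 in Uhrf1 KO. At week 2, 6 were bivalent in each genotype, and at week 3, 7 in WT and 5 in Uhrf1 KO. The Foxh1 partners Smad2, Smad3 and Smad4, the Foxo regulators Pik3ca and Sirt1 and the Foxm1 targets Plk1, Ccnb1 and Aurkb were active in all 8 pairs. Ptch1, the Hedgehog receptor upstream of Foxf and Foxl genes, Sox9 and Pdgfra were bivalent in all but Uhrf1 KO mESC, where they were active. Tbx1, a partner of Foxc genes in pharyngeal development, and Nodal, the ligand upstream of Foxh1, were bivalent in WT and repressive in Uhrf1 KO at week 1, as the 7 forkhead genes above. Akt1, the kinase that holds Foxo factors in the cytoplasm, was bivalent in WT mESC and in Uhrf1 KO at week 2 and active otherwise, and Cdc25b, a Foxm1 target, was bivalent in WT at week 1 only. Gli2 was bivalent in WT and active in Uhrf1 KO at weeks 1, 2 and 3. Of the forkhead genes outside the list, Foxa1 and Foxa2 were bivalent in all 8 pairs but Uhrf1 KO mESC, where Foxa1 had no mark and Foxa2 was repressive. Foxd3 was bivalent in WT and active in Uhrf1 KO mESC, and repressive in both genotypes at week 1.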

How the data were processed

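Per the labels and methods, the authors aligned reads to mm9 with Bowtie2 2.1.0, called histone domains per library with RSEG against input and factor summits with MACS, and listed Uhrf1 windows of 10 kb enriched over input, with no score. The deposited signal is the mean read count per bin of a domain or the number of reads at a summit, and the deposited score grows with domain length. The methods state that read counts were normalized to total mapped reads, but not whether this holds for the domain columns, and bins differed. Both columns were therefore used to rank or filter within a list, with 1 exception, the count minimum below, which sets Uhrf1 KO against WT mean counts per bin and is given for completeness only. Read totals were not used here. The 8 inputs among the 33 samples were not used.

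Samples were grouped by the labels' genotype, stage and target. Starts were the 5′ ends of gene features in GENCODE vM1, for all protein-coding genes except those of the mitochondrion, and Foxl1, which it types as a pseudogene. No list reached past a chromosome end of NCBIM37. Classes were set by at least 1 bp of overlap with domains in the windows given above, whereas the study classed promoters by reads over input. CpG observed over expected was the number of CG times the window length over the product of C and G counts. Overlap calls were tested on simulated data.

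Members, groups and lists were chosen with earlier results of these data known. Values in every list were to be given for Foxk1, Foxo3, Foxm1, members bivalent in all 8 pairs (there were none), the 6 lineage genes with most differing stages, genes within 100 kb of another member, and genes with a factor summit or Uhrf1 window nearby, the last given mostly by class, range of lengths and summit. The alternatives were 3 other windows, domains above the median score, coverage of at least 50%, lists of equal number, any transcript start, and a count minimum chosen after the data were seen. Tools were Python 3.11, numpy 2.4.6 and matplotlib 3.10.9.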

Additional observations from a re-analysis of the deposited data

Results flagged for a closer look

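Over the 36 forkhead genes, the gap between genotypes changed in size or sign from stage to stage. That change was not tested, and each value sets 1 library against 1. For H3K4me3, the number of genes marked in Uhrf1 KO minus the number marked in WT was -11 in undifferentiated cells. In EBs it was -7 at the first week, then 1 at week 2 and 1 at week 3. For H3K27me3 the same difference was -13 in undifferentiated cells, -1 at the first week of EBs, 2 at week 2 and -1 at week 3. Of 22367 coding genes, 14130 held H3K4me3 in WT mESC and 12740 in Uhrf1 KO mESC. H3K27me3 was held by 7800 and 1694, so its drop in mESC was not particular to forkhead genes. In EBs the H3K4me3 counts were 13885 and 12754, 14699 and 14422, and 14816 and 14721 at the successive weeks. Those of H3K27me3 were 4585 and 4724, 6671 and 5391, and 7429 and 4355.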

How the results depend on the processing

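No paired analysis was possible because every group had 1 library and the labels gave no replicate numbers. Of 100 recomputed counts of forkhead genes, 84 stayed within 1.5 times the reported value. Some of these could hardly move. Allowing any transcript start changes nothing at a gene with 1 annotated start, as most lineage genes have. Lists of equal number changed little at week 1, where the lists of the genotypes were of near equal length. The other 16 were as follows, and their causes were not tested. When each list was cut to its upper-scoring domains (over the median), bivalent genes numbered 7 in WT mESC, 10 in WT and 3 in Uhrf1 KO at week 1, and 10 in Uhrf1 KO at week 3, and the class differed at 12 genes at week 2 and 8 at week 3. With lists of equal number, 4 were bivalent in WT mESC, while Uhrf1 KO mESC stayed at 3, and the class differed at 11. With at least 50% of the window covered, 3 were bivalent in Uhrf1 KO at week 1 and 7 at week 2, and the class differed at 9 genes at week 2 and 9 at week 3. With windows of 1 and 2 kb it differed at 7 genes at week 3. When KO H3K27me3 domains less dense than any WT one were dropped, a setting added once the data had been seen that compares counts per bin across lists of different bins and unmatched depth, 0 were bivalent in Uhrf1 KO mESC and 6 at week 3, and the class differed at 16 genes at week 3. Of 296 recomputed numbers of differing stages for single genes, 218 stayed the same, with the same limit, and 78 moved. Between WT mESC and Uhrf1 KO mESC the short KO list and the unmatched depth limit what absence of a domain shows.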
